A study of Homo sapiens with 9 samples.

Results

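The simple epithelial keratins are the intermediate filament proteins of single-layered epithelia, and 5 of their genes were followed here: KRT7, KRT8, KRT18, KRT19 and KRT23. They were matched by Ensembl ID among 60308 gene IDs, and all 5 were found. Their RNA was read from stranded libraries of 9 cultures of MCF10A, an immortalised, non-tumorigenic line of human breast epithelial cells. All 9 cultures carried 2 ectopic constructs, MYC (pBABE-hygro-MYC) and a mutant PI3K with GFP (pMN-IRES-GFP-PI3KH1047R). Each culture also held a doxycycline-inducible hairpin (vector pLKO-tetON-puro) and received 2 µg/mL doxycycline for 72 hours, the controls included. The groups were shG9a_1 and shG9a_4, which are 2 hairpins against EHMT2 (it encodes G9a, an enzyme that methylates lysine 9 of histone H3), and shSCR, a scrambled hairpin, with 3 cultures each. All cultures come from 1 line, and no group without a hairpin was measured.

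Keratins form filaments only as pairs of a type I and a type II protein. KRT7 and KRT8 are type II and are the usual partners of the type I proteins KRT18 and KRT19. KRT8 and KRT18 are the first keratins of the embryo and mark luminal cells of the breast, whereas KRT5 and KRT14 mark its basal cells. KRT19 has hardly any tail domain, and KRT23 is a type I keratin of some glandular and colon epithelia.

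The coding sequences show how alike the 3 type I members are. Below is a stretch of 60 coding bases at the start of their central rod domain, read from GENCODE release 29 transcripts, the stretch in which the family as a whole is most alike. Capitals mark the 47 bases that are the same in KRT18, KRT19 and KRT23. It begins at coding base 247 in KRT18 and KRT19 and at 223 in KRT23. KRT7, KRT8 and KRT18 lie on chromosome 12, and KRT19 and KRT23 on chromosome 17.
KRT18: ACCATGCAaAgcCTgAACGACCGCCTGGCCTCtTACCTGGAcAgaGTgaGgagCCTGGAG
KRT19: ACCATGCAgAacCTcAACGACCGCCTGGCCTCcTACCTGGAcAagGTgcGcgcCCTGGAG
KRT23: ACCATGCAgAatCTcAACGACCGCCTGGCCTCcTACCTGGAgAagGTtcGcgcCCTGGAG

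KRT19 and KRT23 share 57 of these 60 bases. Over the aligned coding sequence KRT7 and KRT8 were 70.1% identical, KRT18 and KRT19 58.2%, KRT19 and KRT23 57.8%, and KRT18 and KRT23 50.9%. Pairs of a type I and a type II gene were 46.3 to 49.1% identical. At the length of a read the genes were distinct to different degrees. Of the 75-base windows of each main transcript, the read length of these libraries, 0% were found in another annotated gene for KRT19, 2.40% for KRT23 and 9.05% for KRT7. The shares were higher for KRT8, at 17.8%, and for KRT18, at 25.5% (processed copies and an overlap on the opposite strand, described with the counting).

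Libraries held 53065611 to 76958831 reads in genes, and 26759 to 28346 genes had a read. EHMT2 was at 17.2, 22.8 and 20.8 CPM (counts scaled to 1000000 reads in genes) in shG9a_1 and at 31.7, 27.0 and 34.1 CPM in shG9a_4, against 51.4, 45.4 and 45.9 CPM in shSCR. Its log2 fold change against shSCR was −1.21 in shG9a_1 (edgeR adjusted p = 0.00766) and −0.61 in shG9a_4 (edgeR adjusted p = 0.259). The groups did not overlap for either hairpin, as was so for 16.1% of tested genes in shG9a_1 and 7.04% in shG9a_4, but the smaller difference of shG9a_4 did not pass the threshold of 0.05 over all genes. The replicate block did not call it either (adjusted p = 0.0907), whereas DESeq2 (adjusted p = 0.000912) and edgeR without a filter on low counts (adjusted p = 2.24e-05) did. Libraries with the same replicate number tended to deviate together, most clearly those numbered 3. The 3 libraries numbered 3 were the shallowest (53065611 to 54477100 reads) with the most unmapped reads (3.67 to 4.34%, against 2.75 to 3.21% in the other 6). All 12 markers of breast epithelial lines averaged at least 1 CPM, CDH1 (27.1 CPM) and EPCAM (38.6 CPM) among them. That list includes the members KRT8 and KRT18 and the keratins KRT5, KRT14 and KRT17, so it is not independent of the genes followed here. The line also expressed VIM, the mesenchymal intermediate filament vimentin, at 1015 CPM. In bulk RNA, fewer cells with a transcript and less of it per cell cannot be told apart.

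KRT7 had the most reads of the 5. It had 1024, 1456 and 1530 CPM in shG9a_1, 1096, 978 and 1421 CPM in shG9a_4, and 866, 1255 and 1332 CPM in shSCR. In all 3 groups the library numbered 3 was the highest, and the groups overlapped, as they did for most tested genes. Groups did not overlap for 16.1% of tested genes in shG9a_1 against shSCR and 7.04% in shG9a_4 against shSCR. Between the hairpins shG9a_4 and shG9a_1 that share was 9.8%. The mean was 1337 ± 273 CPM in shG9a_1, 1165 ± 229 CPM in shG9a_4 and 1151 ± 250 CPM in shSCR (SD, n = 3 each). By mean CPM it stood at rank 52 of all 60308 gene IDs.

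KRT8 is the other type II member. Its libraries had 167, 239 and 281 CPM in shG9a_1, 190, 161 and 231 CPM in shG9a_4, and 161, 155 and 204 CPM in shSCR. shG9a_1 held both the highest 2 values and 1 value within the shSCR range, so that these groups overlapped too. The means were 229 ± 57.3 CPM in shG9a_1, 194 ± 35.0 CPM in shG9a_4 and 174 ± 26.7 CPM in shSCR (SD, n = 3 each).

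KRT18, the type I partner of KRT8, varied least. It had 248, 245 and 297 CPM in shG9a_1, 277, 233 and 290 CPM in shG9a_4, and 249, 241 and 273 CPM in shSCR. The means were 263 ± 29.7 CPM in shG9a_1, 267 ± 29.9 CPM in shG9a_4 and 254 ± 16.8 CPM in shSCR (SD, n = 3 each). The lowest and highest of the 9 libraries, at 233 and 297 CPM, both came from hairpins against EHMT2.

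KRT19, the luminal type I keratin, was close to absent. It had 1, 3 and 6 reads in shG9a_1, 0, 2 and 9 reads in shG9a_4, and 1, 6 and 2 reads in shSCR, or 30 reads over all 9 libraries. That pooled to 0.0524 CPM, with an exact 95% Poisson interval of 0.0353 to 0.0748 CPM that covers counting error only. Only 3 libraries exceeded 3 reads, 1 of each group. Per group the pooled level was 0.0543 CPM (interval 0.0260 to 0.0998) in shG9a_1, 0.0567 CPM (0.0283 to 0.101) in shG9a_4 and 0.0463 CPM (0.0212 to 0.0880) in shSCR, and these intervals overlapped. None of its 75-base windows is shared with another annotated gene, and its 5 named pseudogenes had 0 reads.

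KRT23 had a single read in all 9 libraries, in shG9a_1 replicate 1. shG9a_4 and shSCR had 0 reads, which at a limit of 3 reads per group allows up to 0.0155 CPM in shG9a_4 and 0.0154 CPM in shSCR. Neither KRT19 nor KRT23 passed the filter on low counts, so neither was tested in the fits that use it. In the edgeR fit without that filter neither was called in any comparison of hairpins. KRT19 there had a log2 fold change of 0.28 (SE 0.90) in shG9a_1 and 0.39 (SE 0.89) in shG9a_4, both against shSCR.

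**Figure D1:**
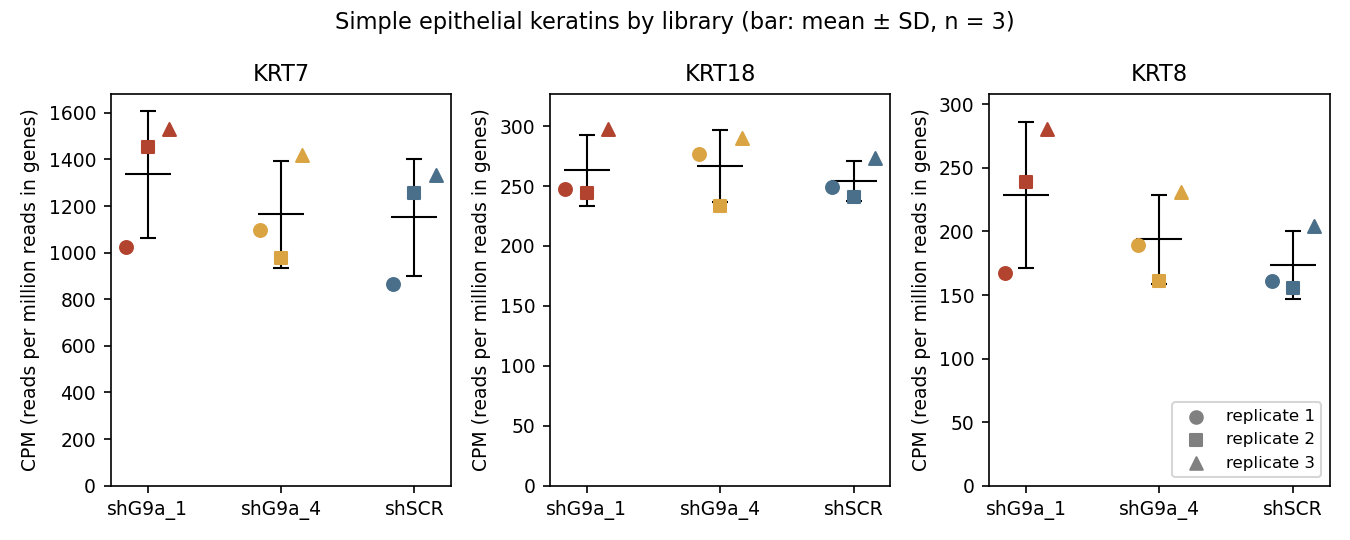
CPM (linear axis from 0) of KRT7, KRT18 and KRT8 in each library, for shG9a_1, shG9a_4 and shSCR from left to right; the symbol shape gives the replicate number and the bar the mean ± SD (n = 3). In every group and gene the triangle, replicate 3, is the highest of the 3 libraries, and the groups overlap.

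Levels of different genes can be compared only per length. Per kilobase of annotated exons KRT7 averaged 297 CPM (range over the 9 libraries 212 to 374), KRT18 81.2 CPM (72.4 to 92.4) and KRT8 28.9 CPM (22.6 to 40.8). These ranges did not overlap, so in the strand-specific counts the order KRT7, KRT18, KRT8 held in all 9 libraries. The annotated exons of KRT8 add up to 6.88 kb, of which 1.45 kb is the coding sequence. Per kilobase of coding sequence the averages were 865, 203 and 137 CPM, and the KRT8 range (107 to 194) overlapped the KRT18 range (181 to 231), although within each library KRT8 stayed below KRT18. The ratio of KRT8 to KRT18 had a median of 0.324 per exon length (0.302 to 0.456) and of 0.616 per coding length (0.575 to 0.869). By library it was 0.316, 0.456 and 0.441 per exon length in shG9a_1 and 0.321, 0.324 and 0.372 in shG9a_4, against 0.302, 0.302 and 0.350 in shSCR. The highest values were replicates 2 and 3 of shG9a_1, and the groups overlapped.

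The files hold 55 keratin genes, of which 38 had a read and 18 averaged at least 1 CPM, 11 of type II and 7 of type I. The members took 18.1 to 26.5% of all keratin reads. KRT7 alone took 12.9 to 20.1%, KRT18 3.12 to 4.24% and KRT8 2.11 to 3.13%. By CPM, KRT7 ranked 3, after the basal keratin KRT5 (2609 CPM) and the stress-associated KRT6A (1775 CPM). Per exon length it ranked 4, also behind the hair-type keratin KRT81, whose near-identical relatives make its own count uncertain. KRT18 ranked 6, just below the basal and stress keratin KRT17, and KRT8 ranked 7. KRT20, the type I keratin of gut epithelium, had 0 reads, and KRT222 averaged 0.0950 CPM. KRT7, KRT18 and KRT8 were thus read next to abundant KRT5 and KRT6A, with KRT19, KRT20 and KRT23 at or near 0.

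**Figure D2:**
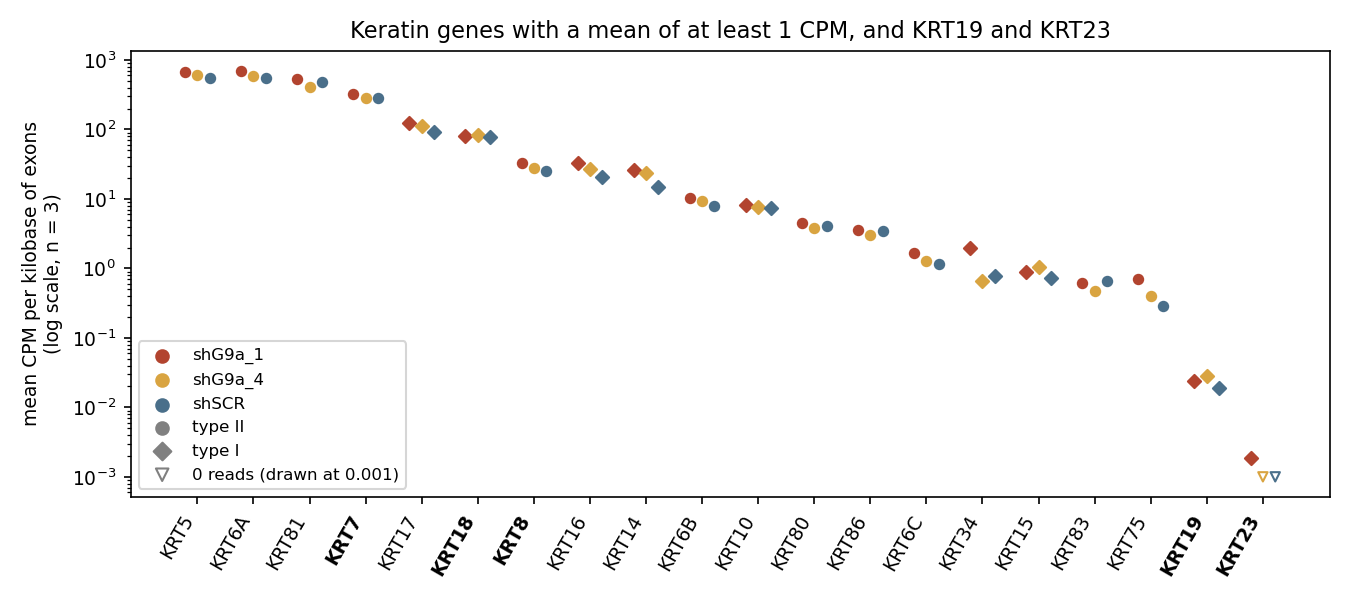
Mean CPM per kilobase of exons (log axis, n = 3) of the 18 keratin genes that averaged at least 1 CPM, and of KRT19 and KRT23, for shG9a_1, shG9a_4 and shSCR from left to right within each gene; circles are type II, diamonds type I, and open triangles stand for 0 reads. KRT7, KRT18 and KRT8 take places 4, 6 and 7, and KRT19 and KRT23 lie far below every other gene shown.

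The design asks whether knockdown of EHMT2 altered RNA levels. No member was called in any comparison of hairpins by edgeR's quasi-likelihood test with the low-count filter, in a background in which few genes were called at all. In shG9a_1 against shSCR 0.038% of the 18435 tested genes passed an adjusted p of 0.05, in shG9a_4 against shSCR 0.0271%, and in shG9a_4 against shG9a_1 0%. With the replicate number as a block, which also called no member, the shares were 0.776% for shG9a_1 and 0.0759% for shG9a_4 against shSCR. In the comparison of the hairpins with each other 754 genes had an unadjusted p under 0.05, DESeq2 called 6 genes, the likelihood ratio test 5 and voom 0. Of the 3 members that passed the low-count filter, DESeq2, the likelihood ratio test and voom called 0 in each of these comparisons. In shG9a_1 against shSCR 1 of the 3 had an unadjusted p under 0.05, as did 7.5% of all genes. In shG9a_4 against shSCR (2.38% of all genes) and against shG9a_1 (4.09%) 0 of the 3 did.

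That member was KRT8. Its log2 fold change in shG9a_1 against shSCR was 0.42 (SE 0.18, edgeR adjusted p = 0.644). With the block the adjusted p was 0.117. Of 19 alternatives it was called in 1, the fit without a filter on low counts (adjusted p = 0.000578), in which 288 genes were called instead of 7. That fit gave KRT8 an SE of 0.086 instead of 0.18, so the call rests on the smaller error. For KRT7 and KRT18 the SEs were 0.084 and 0.086 instead of 0.19 and 0.099. Within each replicate number the log2 difference of shG9a_1 over shSCR was 0.054, 0.62 and 0.46, higher in 3 of 3 but close to 0 for number 1. With 1 library left out the fold change lay between 0.24 (without shG9a_1 replicate 3) and 0.60 (without shG9a_1 replicate 1). In shG9a_4 against shSCR the KRT8 log2 fold change was 0.17 (SE 0.18, edgeR adjusted p = 1.00), with 0.24, 0.054 and 0.18 within the numbers, and lay between 0.050 (without shG9a_4 replicate 3) and 0.29 (without shSCR replicate 3). The difference between the hairpins, shG9a_4 over shG9a_1, was −0.25 (SE 0.18, edgeR adjusted p = 1.00), so that a difference between the hairpins was not shown either. It lay between −0.43 (without shG9a_1 replicate 1) and −0.074 (without shG9a_1 replicate 3). The authors' deposited table gave KRT8 a fold of 1.33 in shG9a_1 and 1.12 in shG9a_4, with posterior probabilities of different expression of 0.00463 and 0.000254.

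KRT7 had a log2 fold change of 0.24 in shG9a_1 against shSCR (SE 0.19, edgeR adjusted p = 0.834) and of 0.025 in shG9a_4 against shSCR (SE 0.19, adjusted p = 1.00). Within the replicate numbers shG9a_1 lay 0.24, 0.21 and 0.20 log2 units above shSCR. With 1 library left out the log2 fold change in shG9a_1 lay between 0.069 (without shSCR replicate 1) and 0.39 (without shG9a_1 replicate 1), called in none. The within-number differences for shG9a_4 were 0.34, −0.36 and 0.093. The difference of shG9a_4 from shG9a_1 was −0.21 (SE 0.19, edgeR adjusted p = 1.00), and −0.37 to −0.099 with 1 library left out. In the authors' deposited table the folds of KRT7 were 1.14 in shG9a_1 and 1.01 in shG9a_4.

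KRT18 had the smallest errors, with values of 0.072 in shG9a_1 (SE 0.10, edgeR adjusted p = 0.916) and 0.077 in shG9a_4 (SE 0.10, adjusted p = 1.00), both against shSCR on the log2 scale. Within the replicate numbers its differences from shSCR lay between −0.0080 and 0.12 in shG9a_1 and between −0.047 and 0.15 in shG9a_4. Over both hairpins together against shSCR, where 0.0488% of all genes were called, KRT8 had a log2 fold change of 0.29 (SE 0.15, edgeR adjusted p = 0.999), KRT7 of 0.13 and KRT18 of 0.074. The block, which called 0.184% of all genes, gave an adjusted p of 0.311 for KRT8. The fit without a filter called KRT8 (adjusted p = 0.0372), with an SE of 0.074 instead of 0.15.

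**Figure D3:**
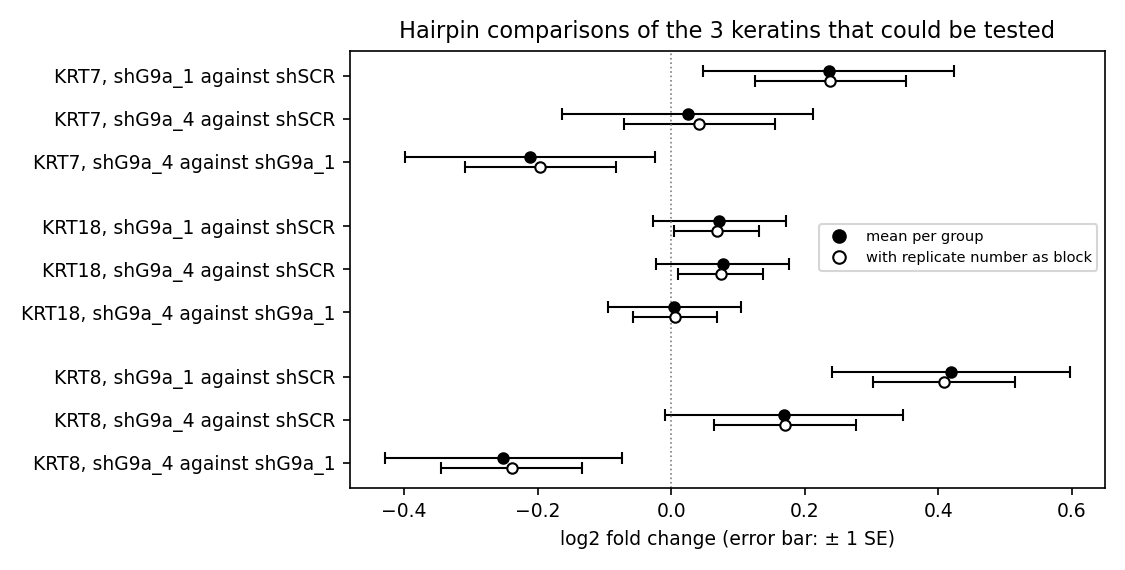
Log2 fold changes of KRT7, KRT18 and KRT8 in the 3 comparisons of hairpins, with error bars of ± 1 SE; filled points are the fit with a mean per group and open points add the replicate number as a block. The block narrows the error bars and hardly moves the points; KRT8 in shG9a_1 against shSCR, at 0.42, is the farthest from 0.

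The members also differed with the replicate number of the libraries. KRT7, KRT8 and KRT18 each had their highest library at number 3 in all 3 groups, a pattern found in 14.2% of tested genes. In the fit with group and number, KRT8 was called (F-test over 3 numbers, edgeR adjusted p = 0.0479). KRT7 (adjusted p = 0.0504) and KRT18 (adjusted p = 0.0689) lay just beyond the threshold, and 7.47% of all genes were called. Leaving out 1 library moved the adjusted p of KRT8 between 0.0128 and 0.267. It was over 0.05 without shG9a_1 replicate 3 (0.258), shG9a_4 replicate 3 (0.267) or shSCR replicate 1, 2 or 3 (0.0675, 0.104 and 0.183). The KRT7 adjusted p was under 0.05 without shG9a_1 replicate 2 (0.0383) or shG9a_4 replicate 1 (0.0162) or 2 (0.00194).

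Number 3 lay above number 1 by 0.50 log2 units for KRT7 (SE 0.11, edgeR adjusted p = 0.0338) and by 0.43 for KRT8 (SE 0.11, adjusted p = 0.0476). For KRT18 that difference was 0.13 (SE 0.063, adjusted p = 0.273). Number 3 lay above number 2 by 0.25 for KRT18 (SE 0.063, adjusted p = 0.0334), by 0.37 for KRT8 (adjusted p = 0.0563) and by 0.21 for KRT7 (adjusted p = 0.280). Between numbers 2 and 1 none of the 3 differed past the threshold. Of the 18435 tested genes, 800 were called for number 3 against 1, 1496 for 3 against 2 and 298 for 2 against 1. All 3 libraries of number 3 lay above all 3 of number 1 for KRT7 and KRT8 (14.8% of tested genes) and above all 3 of number 2 for KRT18 (12.5%), and number 2 lay wholly above number 1 for none of them (8.45%). The labels do not say what a number stands for, and depth, the share of unmapped reads and other-cell markers moved with it. The summed CPM of 10 fibroblast markers was 166 to 224 in number 3, against 364 to 454 in number 2 and 294 to 437 in number 1. By group the sum was 224 to 454 in shG9a_1 and 166 to 449 in shG9a_4, against 183 to 364 in shSCR. Of these markers 4 averaged at least 1 CPM, and the sum is mostly decorin (DCN), which averaged 289 CPM. The markers did not move one way: among those called over the 3 numbers, the log2 difference of number 3 from number 1 was −1.03 for DCN and −0.79 for LUM, but 2.01 for POSTN and 0.45 for FAP. Of 7 endothelial markers 1 averaged at least 1 CPM, of 8 immune cell markers 2 and of 6 hepatocyte and gut markers 0. Their part in the keratin values was not tested.

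KRT7 and KRT8 were correlated over the 9 libraries. Their log2 CPM correlated with Pearson's r = 0.83 (exact permutation p = 0.00703, adjusted over 3 pairs 0.0211) and Spearman's rho = 0.83 (adjusted exact permutation p = 0.0248). Without the 2 libraries farthest from the KRT7 median, r was 0.80. Using deviations from the group means, r was 0.81. KRT8 and KRT18, the classical filament partners, had r = 0.73 (adjusted exact permutation p = 0.0418) and rho = 0.67 (adjusted exact permutation p = 0.0883). Without the 2 libraries farthest from the KRT8 median r was 0.45 with TMM scaling and 0.94 with library size alone. The 2 libraries were picked anew under each scaling and were not the same. With TMM scaling shSCR replicate 2 was left out, and with library size alone shG9a_1 replicate 2, each beside shG9a_1 replicate 3. The value of r thus depended on which libraries were left out, and the 2 values do not compare the scalings. For KRT8 and KRT18 r over deviations from the group means was 0.77. KRT7 and KRT18 had r = 0.53 (adjusted exact permutation p = 0.140) and rho = 0.52 (adjusted exact permutation p = 0.162). Libraries of the same number are not independent in these tests, and each number holds too few libraries for a value of its own.

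**Figure D4:**
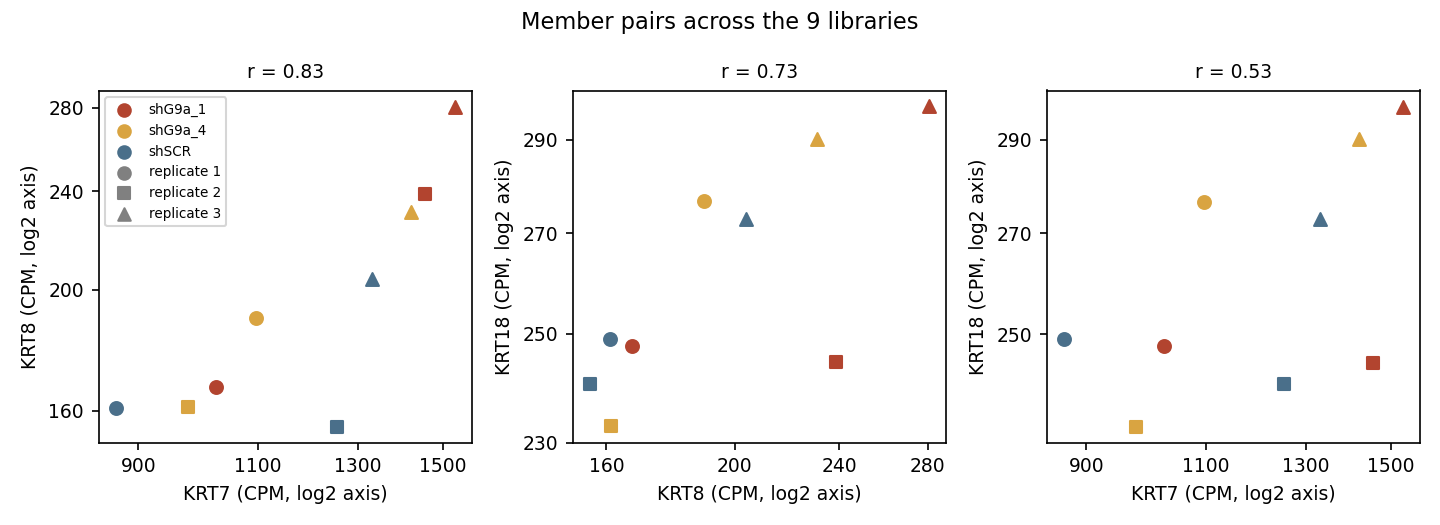
Each pair of KRT7, KRT8 and KRT18 over the 9 libraries, in CPM on log2 axes; colours give the group (shG9a_1, shG9a_4, shSCR) and shapes the replicate number. KRT7 and KRT8 lie along a rising line (r = 0.83), with shSCR replicate 2 the point farthest off the trend; the replicate 2 squares sit low for KRT18.

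Among 10336 genes with a symbol and a mean of at least 5 CPM, the log2 CPM profile most like that of KRT7 over the 9 libraries was that of AL049840.4, which GENCODE lists as a sense intronic transcript (r = 0.98). It was followed by PXN (r = 0.97), which encodes the focal adhesion protein paxillin, and PHLDB1 (r = 0.97). KRT8 stood at rank 144 of this list and KRT18 at rank 1392. The nearest to KRT8 were CDC42EP2, an effector of the GTPase CDC42, the heat shock gene HSPA1B and the matrix gene FBLN1 (r = 0.96, 0.95 and 0.94). HSPA1B has a near-identical copy, HSPA1A, so its count is uncertain. The nearest to KRT18 were EPS15L1, an endocytic adaptor, EPPK1, the keratin-binding plakin epiplakin, and ADCY9, an adenylyl cyclase (r = 0.98, 0.97 and 0.94). These are descriptions over 9 libraries that share hairpins and replicate numbers, with no test.

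The other genes of the keratin system were read from lists, and in no list did the edgeR fit with a mean per group and the low-count filter call a gene by hairpin. Without that filter, where 288 genes were called in shG9a_1 and 49 in shG9a_4, the list genes called were KRT14, KRT16, KRT17, KRT6A, CLDN1, EPCAM, PLEC, JUN, DCN and FAP in shG9a_1 and KRT14, EHF and ITGB4 in shG9a_4. These calls come from the fit with the smaller errors of KRT7 and KRT8 given above. Of all genes tested with the filter, 7.47% were called by number. At an unadjusted p under 0.05 in edgeR against shSCR, 7.5% passed in shG9a_1 and 2.38% in shG9a_4. The list counts below are to be read beside these shares. Calls by replicate number below are over all 3 numbers. Their direction is that of number 3 against number 1, a difference not tested for the list genes. Of 8 basal and stress keratins all 8 were tested and 0 were called. All 8 had a positive log2 fold change in both hairpins against shSCR, with medians of 0.43 in shG9a_1 and 0.26 in shG9a_4, beside medians of 0.00086 and 0.0021 over all genes. The block called KRT14 and KRT16 in shG9a_1 (adjusted p = 0.00576 and 0.0409) and KRT14 in shG9a_4 (adjusted p = 0.0148). Of all genes it called 0.776% in shG9a_1 and 0.0759% in shG9a_4. Outside the lists it also called KRT34, which averaged 1.98 CPM, in shG9a_1 (edgeR adjusted p = 0.0416). In the fit with a mean per group KRT34 had log2 fold changes of 1.33 (SE 0.26) in shG9a_1 and −0.23 (SE 0.27) in shG9a_4 and was not called. KRT14, the basal partner of KRT5, had log2 fold changes of 0.85 (SE 0.34) in shG9a_1 and 0.70 (SE 0.34) in shG9a_4. At an unadjusted p under 0.05, 1 of the 8 passed in shG9a_1 and 0 in shG9a_4. By replicate number 7 of the 8 were called, KRT5, KRT6A, KRT6C, KRT14, KRT15, KRT16 and KRT17. In mean CPM number 3 was the highest for all 7 and number 2 the lowest for 6 of them, with number 1 the lowest for KRT15. The difference of number 3 from number 1 was as small as 0.064 for KRT5 and 0.096 for KRT6C on the log2 scale.

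Of 5 other simple-type and hair-type keratins (KRT20, KRT80, KRT81, KRT86 and KRT222) 3 were tested and 0 called, with medians of 0.16 in shG9a_1 and −0.17 in shG9a_4. Of 31 tested luminal and simple epithelial genes 0 were called in shG9a_1 (2 at an unadjusted p under 0.05) and 0 in shG9a_4 (0 unadjusted), with medians of −0.025 and 0.089. CLDN1, a tight junction claudin, had a log2 fold change of 0.59 (SE 0.19, edgeR adjusted p = 0.595) in shG9a_1, and the ETS factor EHF had 0.39 (SE 0.19) in shG9a_4. By replicate number 12 of the 31 were higher and 2 lower in number 3 than in number 1 among those called. The higher ones included CDH1 (E-cadherin, 1.25), EPCAM (0.75) and CLDN7 (1.44), and the lower ones were EHF (−0.21) and XBP1 (−0.25). Levels within this list differed widely. GATA3 averaged 3.84 CPM, FOXA1 4.19 CPM, the oestrogen receptor gene ESR1 0.268 CPM and ELF3 0.457 CPM. In shSCR, however, MAL2 averaged 136 CPM, XBP1 128 CPM, EHF 101 CPM and SLPI 99.9 CPM.

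Of 37 tested proteins that bind, link or modify KRT8 and KRT18, 0 were called in either hairpin, with 3 at an unadjusted p under 0.05 in shG9a_1 and 1 in shG9a_4. The medians were 0.014 and 0.0062. The smallest unadjusted p in shG9a_1 belonged to PNN, the desmosome and nuclear protein pinin, at −0.26 (SE 0.065, edgeR adjusted p = 0.450). HSPA1A, an inducible heat shock chaperone with the copy named above, had 0.27 in shG9a_1 and 0.20 in shG9a_4. By number 5 were called, all higher in number 3 than in number 1: the transglutaminase TGM2, and the plakins and desmosomal proteins PPL, DSP, EPPK1 and JUP.

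Of 32 tested transcription factors reported to act on simple keratin genes, 0 were called, with 2 at an unadjusted p under 0.05 in shG9a_1 and 0 in shG9a_4. JUN, a subunit of AP-1, had 0.56 in shG9a_1 (SE 0.14, edgeR adjusted p = 0.461). DESeq2 called it, as did the fit with the block (adjusted p = 0.0434). In shG9a_4 it had 0.22 (SE 0.14). By number 6 factors were called, with TP63, ZEB2 and MYC higher and KLF4, EGR1 and ZEB1 lower in number 3 than in number 1. MYC counts include the ectopic construct. Of 7 tested intermediate filament genes other than keratins, 0 were called by hairpin or by number. LMNA, which encodes the A-type lamins, had the smallest unadjusted p in shG9a_1, at 0.26 (SE 0.17). DESeq2, the likelihood ratio test and voom called no gene of these lists in either hairpin against shSCR other than JUN by DESeq2.

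How reads were assigned matters for this family. KRT8 and KRT18 are neighbours on opposite strands, and in GENCODE release 29 their exons overlap by 525 bases. In the main KRT18 transcript 375 bases, 24.0% of it and all coding, lie opposite KRT8 exons. In counts that ignore strand, KRT18 kept only 39.6 to 41.0% of its reverse-strand reads, KRT7 76.8 to 82.3% and KRT8 99.1 to 99.7%. KRT7 has an antisense gene, KRT7-AS, over 282 bases of its exons, and KRT7-AS itself had 0.031 to 0.69 CPM. Without strand the median ratio of KRT8 to KRT18 per exon length was 0.809, against 0.324 with strand. It was then above 1 in shG9a_1 replicates 2 and 3, at most 1.13, and per coding length it was above 1 in all 9 libraries (1.39 to 2.15).

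**Figure D5:**
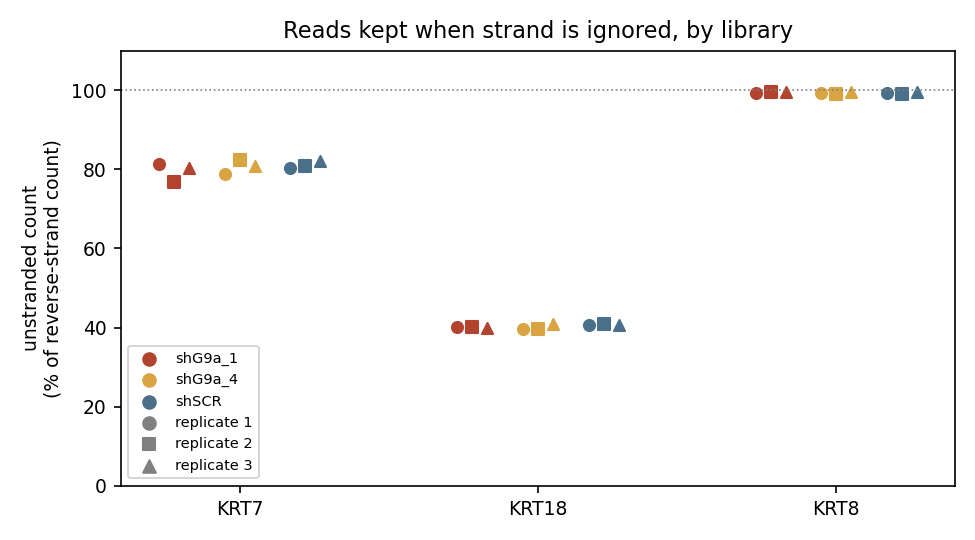
Unstranded count as a percentage of the reverse-strand count of KRT7, KRT18 and KRT8 in each library, with groups shG9a_1, shG9a_4 and shSCR from left to right and symbol shapes for the replicate number. KRT18 keeps 39.6 to 41.0%, KRT7 76.8 to 82.3% and KRT8 99.1 to 99.7%, and the groups lie together.

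KRT8 and KRT18 also have many processed copies elsewhere in the genome. The files name 51 KRT8 pseudogenes, of which 39 had a read, 6455 reads in all or 5.76% of the KRT8 count. They name 67 KRT18 pseudogenes, of which 51 had a read, 1442 reads in all or 0.969% of the KRT18 count. The highest was KRT8P12 on chromosome 3, at 4.28 CPM, followed by KRT8P3 (1.70 CPM), KRT8P33 (1.44 CPM), KRT8P46 (1.34 CPM) and KRT8P39 (1.16 CPM). KRT8P12 was 90.5% identical to the KRT8 coding sequence over 1388 aligned bases.

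Of 1808 windows of 75 bases in the main KRT8 transcript, 322 occurred in another of 12 genes, most often in KRT8P3 (190 windows). Of 1488 windows in KRT18, 380 did, 293 of them in KRT8 on the opposite strand. The windows shared on the opposite strand lie where the 2 genes overlap, and the stranded counts separate them. Reads that map to several places are not in these counts, so the windows shared with copies elsewhere can lose reads, which leaves the KRT8 and KRT18 levels uncertain. When the reads of the named pseudogenes were added to their parents, no member gained or lost a call in any comparison of hairpins.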

How the data were processed

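RNA of 9 cultures was sequenced as stranded total RNA, per the labels' protocols. The authors deposited whole-number counts of reads per gene, in the column layout of the aligner STAR. Builds GRCh37 and hg19 and the tools STAR 2.5.2a, R 3.3.1, DESeq and edgeR 3.14.0 stand in the submitters' processing notes, with no role. No source used here gives the annotation release. The authors also deposited, per the file headers, scores (posterior probabilities of equal and different expression) and linear fold ratios for each hairpin against shSCR.

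Groups were taken from sample titles. Replicates are biological, per the series' design text. The reverse-strand column was taken, with 94.7 to 95.1% of stranded reads on it; rows that name no gene (12.2 to 15.4% without a feature, 2.49 to 2.68% ambiguous, 4.57 to 5.49% multimapping, 2.75 to 4.34% unmapped) were left out. None of the 9 pairs of libraries of the same group was a duplicate (chi-square per degree of freedom 25.2 to 78.9). CPM are counts scaled to 1000000 reads in genes.

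edgeR 4.0.16 (R 4.3.3) fitted 18435 genes kept by filterByExpr with TMM scaling and a mean per group over all 9 libraries (6 residual degrees of freedom), with the quasi-likelihood F-test, two-sided, and Benjamini-Hochberg adjustment over all genes at 0.05. Adjusted p-values of genes come from edgeR where no other tool is given; pair correlations were tested by exact two-sided permutation. In each of 9 pairs of libraries that share a replicate number, the deviations from the group mean correlated (r = 0.168 to 0.651), so the numbers pair the libraries. A second fit took the number as a block, with 4 residual degrees of freedom. The labels do not say what the number marks. Alternatives were RLE or plain library size, DESeq2 1.42.0, the likelihood ratio test, limma 3.58.1 voom, no filter, unstranded counts, only the groups compared, pseudogene reads added and each library left out.

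The members and lists were chosen with earlier results of these data known. The text names the members, keratins of at least 1 CPM, the 5 highest keratin pseudogenes, the list genes that were called or had up to 3 of the smallest p-values in a hairpin against shSCR, defining markers, and the 3 nearest profiles of each member. Correlations were computed for 3 of the 10 pairs, since KRT19 and KRT23 had too few reads. Symbols, exon lengths and sequences came from a gene table and GENCODE release 29, whose build (GRCh38) is not that of the files, and coordinates were left out. Coding sequences were aligned with MAFFT 7.526. The edgeR fit with a mean per group was run on simulated counts without differences between replicate numbers. That check does not cover the pairing by number seen here. Some sequences are not reported here.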

Additional observations from a re-analysis of the deposited data

How the results depend on the processing

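The 12 results of KRT7, KRT8 and KRT18 in the hairpin comparisons were recomputed under 225 alternatives, of which 210 kept direction and side of the threshold. Without a filter on low counts KRT8 passed it in shG9a_1 against shSCR (log2 0.42) and for both hairpins against shSCR (0.29), with the smaller SEs given above. KRT18 in shG9a_4 against shG9a_1, at 0.005, turned to −0.0046 with RLE size factors, −0.0046 with DESeq2 and −0.0091 with unstranded counts. With 1 library left out, KRT18 ranged from −0.027 to 0.14 in shG9a_1 and from −0.053 to 0.10 in shG9a_4 against shG9a_1, and KRT7 from −0.14 to 0.13 in shG9a_4 and from −0.037 to 0.24 for both hairpins. The cause was not tested. Genes called in shG9a_1 were 7 (DESeq2 80, likelihood ratio test 42, no filter 288, replicate block 143, 1 library left out 0 to 10), in shG9a_4 5 (21, 17, 49, 14, and 0 to 7, with 1 from unstranded counts and 0 in a fit of only the groups compared). In shG9a_4 against shG9a_1 they were 0 (DESeq2 6, likelihood ratio test 5, no filter 106, replicate block 0, 1 library left out 0 to 0) and for both hairpins 9 (40, 22, 126, 34, 0 to 11). The block changed no call of a member by hairpin. By replicate number 1377 genes were called (likelihood ratio test 2328, no filter 2874, 1 library left out 435 to 2109). There values are differences of number 3 from number 1, and the test is over all 3 numbers. It passed for KRT7 with the likelihood ratio test (0.50), no filter (0.48) and unstranded counts (0.50), and the difference ranged from 0.40 to 0.66 with 1 library left out. The test over the numbers missed the threshold for KRT8 with RLE (0.43), library size alone (0.45) and unstranded counts (0.42), with differences of 0.26 to 0.55 with 1 library left out. It passed for KRT18 with library size alone (0.15), the likelihood ratio test (0.13) and no filter (0.12). Unstranded counts moved the median KRT18 share of keratin reads from 3.43 to 1.46%, the ratio of KRT8 to KRT18 per exon length to 0.809 and that of KRT7 to KRT8 from 10.3 to 8.39. Coding length, chosen after seeing the data, moved those ratios to 0.616 and 6.28. The correlation of KRT8 and KRT18 missed the adjusted threshold with unstranded counts (r = 0.71, adjusted exact permutation p = 0.0522). At 30 and 1 reads in all, KRT19 and KRT23 had too few reads to compare the groups closely.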
